A study of Mus musculus with 12 samples.

Results

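Genes for the coat and assembly of lipid droplets were followed in a pair of mouse fat depots, brown adipose tissue (BAT) and the white fat of the groin (inguinal, IWAT). The set holds 10 of the 55536 genes in the count files and was chosen by symbol. It comprises the perilipins Plin1, Plin2, Plin3, Plin4 and Plin5, the droplet fusion gene Cidec, the assembly genes Bscl2, Fitm1 and Fitm2, and the lipolysis inhibitor gene Hilpda. Each symbol matched a single Ensembl identifier, and all 10 genes passed the low-count filter in every comparison. In the IWAT comparison of KI-HFD with WT-NC, Fitm1 passed it only through the WT-NC libraries. It had few reads there, 3 to 4 counts in each KI-HFD library and 14 to 26 in each WT-NC library.

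A lipid droplet is a core of triglyceride and sterol ester under a single layer of phospholipid, and it forms in the membrane of the endoplasmic reticulum. Perilipins sit on its surface and set how easily lipases reach the core. White adipocytes typically store their lipid in one large droplet, while brown adipocytes hold many small droplets close to mitochondria and burn the fatty acids for heat.

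Poly-A RNA of C57BL/6 mice was sequenced from 4 groups of 3 libraries. The BAT KI-HFD and IWAT KI-HFD libraries carry the genotype label Adv-CGRPalpha+/- and come from animals on a high-fat diet (HFD). The BAT WT-NC and IWAT WT-NC libraries are labelled wild type and come from animals on normal chow (NC). Genotype and diet change together, so their effects cannot be told apart. The labels give no age and no further description of the allele. The design text gives 3 per group and does not say whether a BAT and an IWAT library came from the same animal. The p-values measure the spread between these libraries.

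Each library held between 17408621 and 23514095 gene counts. Levels are given in CPM, gene counts brought to a common library size with TMM scaling, and a difference is a log2 ratio with its standard error (SE). Ucp1, the heat-producing uncoupling protein of brown fat, reached 8833 to 12257 CPM in BAT KI-HFD and 5673 to 8890.2 CPM in BAT WT-NC libraries. It stood at 3.60 to 9.49 CPM in IWAT KI-HFD and 2.69 to 27.8 CPM in IWAT WT-NC libraries. The brown fat marker Zic1 had no counts in IWAT. Of 9 brown markers, edgeR called 7 higher and 1 lower in BAT than in IWAT in WT-NC, against 14.9% and 13.5% of all genes. The lower one was Lhx8, at a mean of 2.53 CPM in BAT and 10.3 CPM in IWAT (edgeR adjusted p = 0.0353). Prdm16 was not called there, at 38.7 CPM in BAT and 30.2 CPM in IWAT (edgeR adjusted p = 0.342). In KI-HFD edgeR called 8 higher and 0 lower, against 17.2% and 18.8%. Among the white fat markers, Tcf21 had no counts in either IWAT group or in BAT KI-HFD, and Hoxc10 none in BAT WT-NC. The summed level of 18 skeletal muscle markers ran from 2801 to 19780.3 CPM in BAT KI-HFD and from 750.2 to 78945 CPM in BAT WT-NC libraries. The summed level of 10 lymphocyte markers was 793 CPM in IWAT KI-HFD replicate 3 and 6.10 to 55.4 CPM in the other libraries. In bulk tissue, fewer cells of a type and less RNA per cell cannot be told apart.

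The clearest differences among the droplet genes lay between the depots. Plin5 was 13.5-fold higher in BAT than in IWAT in KI-HFD and 9.78-fold higher in WT-NC, while its chromosomal neighbour Plin4 was 7.07-fold lower in KI-HFD and 5.84-fold lower in WT-NC. Between KI-HFD and WT-NC, 0 of the 10 genes passed edgeR's quasi-likelihood test in either depot, where 0.0445% of all genes tested did in BAT and 0% in IWAT. In IWAT, Plin2 and Hilpda were lower in all 3 KI-HFD libraries than in all 3 WT-NC libraries, and both passed with DESeq2, which called 2.15% of all genes there, and in the authors' deposited table, where 2.22% passed.

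**Figure D1:**
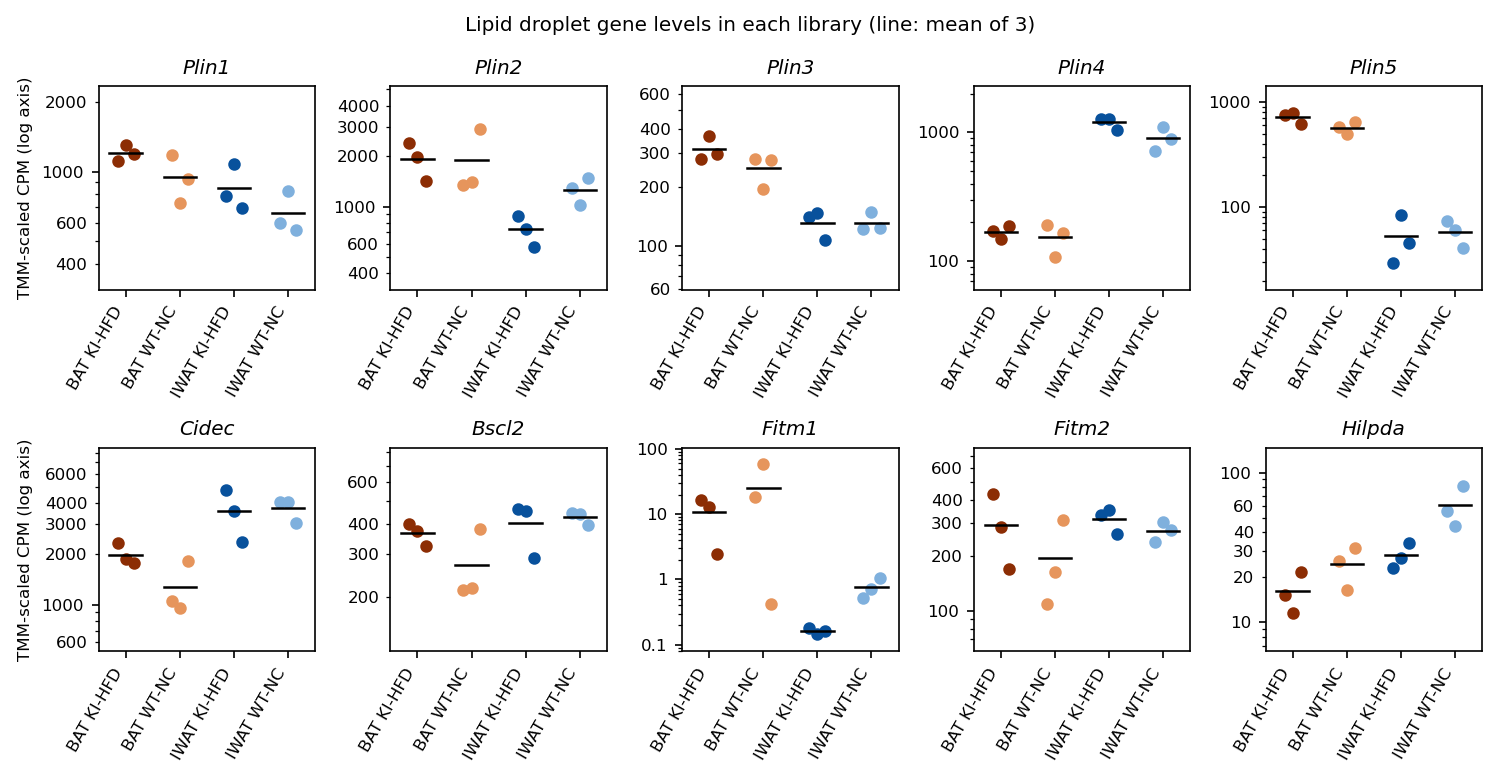
TMM-scaled CPM (log axis) of each of the 10 droplet genes in the 12 libraries, with KI-HFD left of WT-NC in each depot; points are libraries and the line is the mean of 3. Plin4 and Plin5 separate the depots in opposite directions, and in IWAT all KI-HFD points for Plin2 and Hilpda lie below the WT-NC points.

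Plin4 and Plin5 lie next to each other on the minus strand of chromosome 17, Plin4 at 56100591 to 56109803 and Plin5 at 56111601 to 56117596 (GRCm38), with 1797 bases between the genes. Their promoters are shown because the neighbours differ in opposite directions between the depots. The promoters of Plin2 and Hilpda are shown because DESeq2 called these genes lower in IWAT KI-HFD, while edgeR called neither. Each stretch runs from 250 bases before to 50 bases after the start site, 5′ to 3′ on the gene's strand, and was taken from RefSeq (GRCm38.p6). Capitals mark matches on either strand to the motifs searched. Plin4 is at chr17:56109733-56110032 (minus strand), Plin5 at chr17:56117499-56117798 (minus), Plin2 at chr4:86670010-86670309 (minus) and Hilpda at chr6:29272238-29272537 (plus).
Plin4: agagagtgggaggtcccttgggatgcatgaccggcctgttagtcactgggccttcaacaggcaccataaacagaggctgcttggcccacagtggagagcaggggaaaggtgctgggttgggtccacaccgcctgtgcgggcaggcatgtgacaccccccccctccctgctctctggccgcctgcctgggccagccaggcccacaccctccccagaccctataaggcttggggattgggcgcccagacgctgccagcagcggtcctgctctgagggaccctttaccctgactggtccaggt
Plin5: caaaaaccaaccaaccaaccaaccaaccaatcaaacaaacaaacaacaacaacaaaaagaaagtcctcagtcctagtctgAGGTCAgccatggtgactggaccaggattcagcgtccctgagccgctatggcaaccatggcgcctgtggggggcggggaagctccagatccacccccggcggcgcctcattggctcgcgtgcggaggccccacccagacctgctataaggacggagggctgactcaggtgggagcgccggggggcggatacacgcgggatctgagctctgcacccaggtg
Plin2: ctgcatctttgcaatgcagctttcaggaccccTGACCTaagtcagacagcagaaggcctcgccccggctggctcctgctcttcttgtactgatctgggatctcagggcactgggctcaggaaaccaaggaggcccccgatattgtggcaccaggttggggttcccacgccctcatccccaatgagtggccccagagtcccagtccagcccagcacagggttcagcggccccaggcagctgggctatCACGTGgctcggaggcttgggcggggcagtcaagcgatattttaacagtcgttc
Hilpda: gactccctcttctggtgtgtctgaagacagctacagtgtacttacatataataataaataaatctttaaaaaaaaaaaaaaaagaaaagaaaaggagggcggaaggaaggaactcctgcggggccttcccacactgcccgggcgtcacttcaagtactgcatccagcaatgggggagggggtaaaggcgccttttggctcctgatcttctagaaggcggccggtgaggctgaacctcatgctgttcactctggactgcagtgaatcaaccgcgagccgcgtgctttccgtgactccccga

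The motifs were searched on both strands. They were AGGTCA, the core site of nuclear receptors, its direct repeat with 1 base between the copies, and TATAAA, the TATA box. Also searched were CACGTG, an E-box, and ACGTG, a form of the core of the hypoxia response element. The other form of that core, GCGTG, was not searched. Plin5 held AGGTCA at position -170 and Plin2 held it on the opposite strand at -218, counted from the start site. Of 32851 RefSeq promoters of the same length, 16.3% held AGGTCA. Plin2 also held CACGTG at -4, which contains ACGTG on both strands. CACGTG was present in 7.15% and ACGTG in 19.6% of all promoters. The Plin4 and Hilpda stretches held none of the motifs searched, though the unsearched GCGTG occurs in the Hilpda and Plin5 stretches as printed. TATAAA (13.6% of all promoters) and the direct repeat (0.0396%) were in none of the 10 promoters. A match is a description of the letters and not evidence of a bound site.

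Plin5 places droplets beside mitochondria and is typical of tissues that oxidise fat. Its level was 747, 788 and 619 CPM in BAT KI-HFD and 576.5, 494 and 642 CPM in BAT WT-NC libraries. In IWAT it was 29.6, 84.2 and 46.0 CPM in KI-HFD and 73.8, 60.3 and 41.0 CPM in WT-NC libraries. Every BAT library lay above every IWAT library, with no overlap between the depots. The log2 ratio of BAT over IWAT was 3.75 in KI-HFD (SE 0.376, edgeR adjusted p = 2.44e-05) and 3.29 in WT-NC (SE 0.368, edgeR adjusted p = 8.64e-05). Between KI-HFD and WT-NC the Plin5 groups overlapped in both depots, at 0.32 in BAT (SE 0.255, edgeR adjusted p = 0.847) and -0.13 in IWAT (SE 0.379, edgeR adjusted p = 0.921).

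Plin4 coats small, newly formed droplets and is abundant in white fat. It stood at 172, 147 and 188 CPM in BAT KI-HFD and 189, 108 and 166 CPM in BAT WT-NC libraries. In IWAT it reached 1275, 1261 and 1051 CPM in KI-HFD and 711.5, 1100.4 and 897 CPM in WT-NC libraries. All BAT libraries were below all IWAT libraries. The log2 ratio of BAT over IWAT was -2.82 in KI-HFD (SE 0.270, edgeR adjusted p = 1.86e-05) and -2.55 in WT-NC (SE 0.267, edgeR adjusted p = 6.03e-05). In IWAT the KI-HFD and WT-NC ranges overlapped, with a log2 ratio of 0.41 for KI-HFD over WT-NC (SE 0.217, edgeR adjusted p = 0.540). In BAT that ratio was 0.11 (SE 0.262, edgeR adjusted p = 0.950). Plin4 shares 17 exon bases with Hdgfl2 on the opposite strand, and reads there cannot be assigned without strand.

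Per exon length, Plin5 over Plin4 was 9.12 to 14.8 in BAT KI-HFD and 8.43 to 12.6 in BAT WT-NC libraries. The same ratio was 0.0643 to 0.185 in IWAT KI-HFD and 0.127 to 0.287 in IWAT WT-NC libraries. Plin5 was the higher of the pair per length in every BAT library and the lower in every IWAT library.

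The 5 perilipins were also compared with each other per exon length, as shares of their sum. Plin4 made up 2.36 ± 0.600% of that sum in BAT KI-HFD and 2.46 ± 0.660% in BAT WT-NC, against 31.6 ± 1.88% in IWAT KI-HFD and 21.6 ± 4.19% in IWAT WT-NC (SD, n = 3 each). Plin5 made up 27.2 ± 1.17% in BAT KI-HFD and 25.3 ± 3.38% in BAT WT-NC, against 3.85 ± 1.71% in IWAT KI-HFD and 3.92 ± 1.27% in IWAT WT-NC. Plin2 was the largest share in every library except IWAT KI-HFD replicate 2, where Plin1 and Plin4 were larger, and replicate 3, where Plin4 was. With the longest transcript as the length, the Plin2 share in BAT KI-HFD was 52.6 ± 6.16%, against 43.1 ± 5.84% with all exons, and Plin2 was the largest share in every library. The Plin4 share was then 1.56 ± 0.416% in BAT KI-HFD, 1.61 ± 0.477% in BAT WT-NC, 21.8 ± 1.38% in IWAT KI-HFD and 14.0 ± 3.14% in IWAT WT-NC. The Plin5 share was 18.8 ± 1.11% in BAT KI-HFD and 17.3 ± 2.78% in BAT WT-NC, against 2.79 ± 1.25% in IWAT KI-HFD and 2.64 ± 0.852% in IWAT WT-NC.

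**Figure D2:**
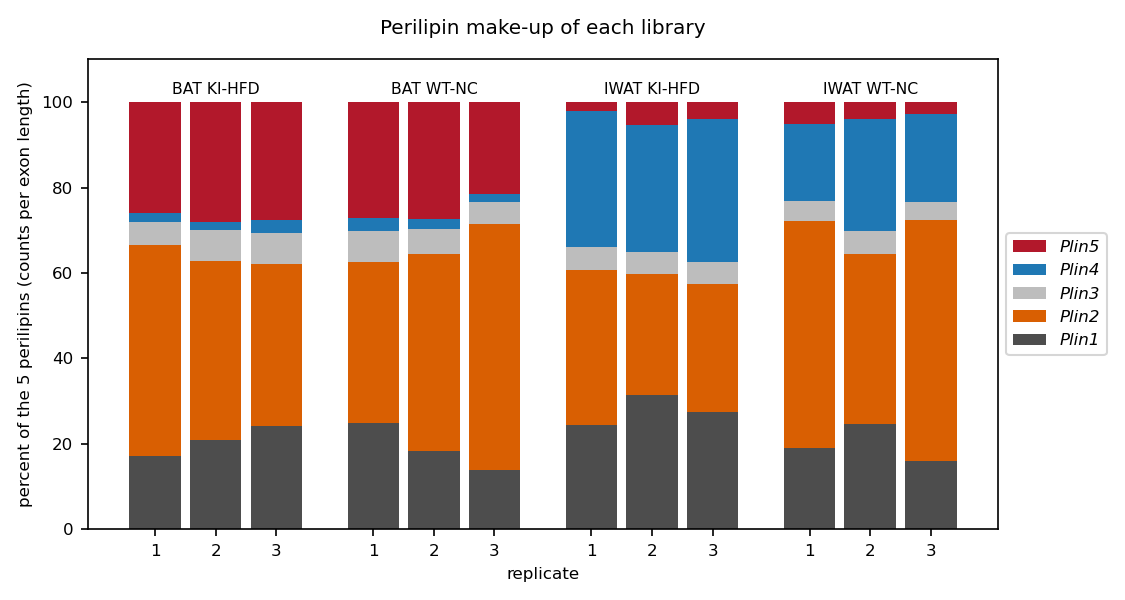
Percent of the summed perilipin signal (counts per exon length) held by each perilipin in each of the 12 libraries, KI-HFD left of WT-NC in each depot. Plin5 holds 21.4 to 28.1% in BAT and 2.05 to 5.47% in IWAT, and Plin4 1.90 to 3.22% in BAT and 18.0 to 33.3% in IWAT.

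Plin2 is found in most cells that hold droplets, and its protein is stabilised by lipid. The gene lies on chromosome 4 at 86648386 to 86670060, minus strand. Its level in IWAT was 880.1, 733.5 and 575 CPM in KI-HFD libraries and 1282, 1018 and 1481 CPM in WT-NC libraries. All 3 KI-HFD libraries were below all 3 WT-NC libraries, a separation in this direction that 8.31% of 15881 tested genes showed. The log2 ratio was -0.79 (SE 0.233, 95% interval -1.33 to -0.24, 1.73-fold lower), and edgeR's adjusted p was 0.348. DESeq2 gave -0.79 with an adjusted p of 0.0241, and the authors' deposited table gave -0.716 with an adjusted p of 0.0274. In BAT the Plin2 libraries stood at 2395, 1982 and 1421 CPM in KI-HFD and 1344, 1404.5 and 2910.4 CPM in WT-NC. There the groups overlapped, at 0.03 (SE 0.403, edgeR adjusted p = 0.993), and the sign depended on the replicate left out. Plin2 was higher in BAT than in IWAT in KI-HFD (log2 1.41, SE 0.349, edgeR adjusted p = 0.00828) and its log2 ratio in WT-NC was 0.58 (SE 0.344, edgeR adjusted p = 0.227). The difference between these ratios was 0.82 (SE 0.485, edgeR adjusted p = 1), so a depot difference particular to KI-HFD was not shown.

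Plin1 (chromosome 7, 79720218 to 79732903, minus strand), the main gatekeeper of adipocyte lipolysis, binds the lipase activator encoded by Abhd5. It stood at 1107, 1299 and 1196 CPM in BAT KI-HFD and 1179, 733 and 932 CPM in BAT WT-NC libraries. In IWAT it was 782, 1076 and 699 CPM in KI-HFD and 600.4, 827 and 558 CPM in WT-NC libraries. The KI-HFD and WT-NC ranges overlapped in both depots. The log2 ratio was 0.32 in BAT (SE 0.295, edgeR adjusted p = 0.866) and 0.37 in IWAT (SE 0.240, edgeR adjusted p = 0.616). BAT over IWAT, it was 0.49 in KI-HFD (SE 0.263, edgeR adjusted p = 0.163) and 0.52 in WT-NC (SE 0.263, edgeR adjusted p = 0.160), and all BAT KI-HFD libraries lay above all IWAT KI-HFD libraries.

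Plin3 (chromosome 17, 56277476 to 56292873, minus strand) is widely expressed and moves from the cytosol to nascent droplets. It held 278, 368 and 296 CPM in BAT KI-HFD and 279.7, 196 and 276 CPM in BAT WT-NC libraries, against 140.1, 147 and 107 CPM in IWAT KI-HFD and 122, 149.8 and 123 CPM in IWAT WT-NC libraries. Every BAT library was above every IWAT library. The log2 ratio of BAT over IWAT was 1.26 in KI-HFD (SE 0.212, edgeR adjusted p = 0.00078) and 0.93 in WT-NC (SE 0.210, edgeR adjusted p = 0.00686). Between KI-HFD and WT-NC it was 0.31 in BAT (SE 0.248, edgeR adjusted p = 0.844) and below 0.01 in size in IWAT (edgeR adjusted p = 0.999).

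Cidec (chromosome 6, 113424634 to 113435760, minus strand) joins droplets and passes lipid from smaller to larger ones. It was at 2312, 1871 and 1768 CPM in BAT KI-HFD and 1054, 953 and 1805 CPM in BAT WT-NC libraries. In IWAT its level was 4768, 3594 and 2369 CPM for KI-HFD and 4088, 4087.8 and 3069 CPM for WT-NC. All BAT libraries of a condition lay below all IWAT libraries of that condition. The log2 ratio of BAT over IWAT was -1.56 in WT-NC (SE 0.342, edgeR adjusted p = 0.00569) and -0.85 in KI-HFD (SE 0.337, edgeR adjusted p = 0.0668, DESeq2 adjusted p = 0.0201). For KI-HFD over WT-NC it was 0.63 in BAT (SE 0.346, edgeR adjusted p = 0.737), where BAT WT-NC replicate 3 overlapped the KI-HFD range, and -0.07 in IWAT (SE 0.316, edgeR adjusted p = 0.952). Cidea, the related fusion gene of brown fat, was more abundant per length than Cidec in every BAT library, with Cidec over Cidea at 0.278 to 0.430 in KI-HFD and 0.230 to 0.530 in WT-NC. In IWAT this ratio was 39.9 to 329 in KI-HFD and 94.1 to 182 in WT-NC libraries.

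Bscl2 encodes seipin, which holds the contact between a growing droplet and the endoplasmic reticulum. It stood at 399.9, 377 and 324 CPM in BAT KI-HFD and 213, 217 and 385 CPM in BAT WT-NC libraries, with 466, 457 and 290.3 CPM in IWAT KI-HFD and 446, 442 and 398 CPM in IWAT WT-NC libraries. The KI-HFD and WT-NC ranges overlapped in both depots. No comparison of Bscl2 passed edgeR's test with TMM and all libraries, with log2 ratios of 0.43 in BAT (SE 0.289, edgeR adjusted p = 0.801) and -0.08 in IWAT (SE 0.208, edgeR adjusted p = 0.910). BAT over IWAT, it was -0.66 in WT-NC (SE 0.266, edgeR adjusted p = 0.0842) and -0.14 in KI-HFD (SE 0.265, edgeR adjusted p = 0.718). In WT-NC all BAT libraries lay below all IWAT libraries. There Bscl2 passed edgeR's test with library totals (adjusted p = 0.0137) and without BAT WT-NC replicate 3 (adjusted p = 0.00673). Fitm2, an endoplasmic reticulum protein of droplet formation found in most tissues, was at 431, 285 and 169.6 CPM in BAT KI-HFD and 109, 163 and 312 CPM in BAT WT-NC libraries. In IWAT it held 334, 353 and 263 CPM in KI-HFD and 237, 303 and 274 CPM in WT-NC libraries, and the groups overlapped in both depots. Its log2 ratio of KI-HFD over WT-NC was 0.60 in BAT (SE 0.451, edgeR adjusted p = 0.832) and 0.22 in IWAT (SE 0.170, edgeR adjusted p = 0.663). The sample numbers in the file names were split here into a low and a high series, which no label names. In BAT the libraries KI-HFD replicate 1 and WT-NC replicate 3 fell in the same series. They had the highest Plin2, Fitm2, Cidec and Bscl2 of their groups, which was not so for the other droplet genes. In IWAT the same series held replicate 3 of both groups. There KI-HFD replicate 3 had the lowest level of each of these genes in its group. WT-NC replicate 3 had the lowest Cidec and Bscl2 of its group but the highest Plin2. With that series as a term of the edgeR fit, 0 of the 10 genes and 0 of all 15726 genes were called in BAT. Without the term, 0 of the 10 were called as well. Bscl2 (chromosome 19, 8837467 to 8848683, plus strand) shares 398 exon bases with Gng3 on the opposite strand, which had 3 to 9 counts in a library. Fitm2 (chromosome 2, 163466379 to 163472629, minus strand) shares 227 with the antisense gene 2310001K24Rik, which had 13 to 71.

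Fitm1 (chromosome 14, 55575617 to 55576954, plus strand), the relative of Fitm2 that mouse skeletal muscle expresses strongly, varied most within BAT WT-NC, where its highest library was 138-fold above its lowest, against at most 2.87-fold for the other droplet genes. It stood at 16.7, 13.0 and 2.44 CPM in BAT KI-HFD and 18.1, 58.3 and 0.422 CPM in BAT WT-NC libraries. Beside these, the 18 skeletal muscle markers summed to 19780.3, 14573 and 2801 CPM in BAT KI-HFD and to 22832, 78945 and 750.2 CPM in BAT WT-NC libraries. Fitm1 per 1000 CPM of muscle markers was 0.844, 0.894 and 0.871 CPM in BAT KI-HFD and 0.792, 0.739 and 0.562 CPM in BAT WT-NC libraries. The order of the 6 BAT libraries by Fitm1 was the same as that by muscle markers. The log2 ratio of KI-HFD over WT-NC in BAT was -1.29 (SE 1.23, edgeR adjusted p = 0.873), and it was 0.19 without WT-NC replicate 2.

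In IWAT, Fitm1 was at 0.179, 0.144 and 0.160 CPM in KI-HFD and 0.527, 0.714 and 1.07 CPM in WT-NC libraries, all KI-HFD libraries below all WT-NC libraries. Its log2 ratio was -2.22 (SE 0.539, edgeR adjusted p = 0.281), DESeq2 gave no adjusted p, and muscle markers summed to 88.0 to 183 CPM in IWAT KI-HFD and 117 to 1167 CPM in IWAT WT-NC libraries. BAT over IWAT, Fitm1 was higher, with log2 6.00 in KI-HFD (SE 1.38, edgeR adjusted p = 0.0055) and 5.05 in WT-NC (SE 1.23, edgeR adjusted p = 0.00978). With limma-voom neither depot ratio passed, and BAT WT-NC replicate 3 lay below all 3 IWAT WT-NC libraries. edgeR also called all 18 muscle markers higher in BAT in both conditions, against 17.2% of genes in KI-HFD and 14.9% in WT-NC. All 18 lay without overlap between the depots in KI-HFD, but 5 of 18 in WT-NC, against 47.4% and 44.6% of all genes. The sum in BAT WT-NC replicate 3, 750.2 CPM, was below the 1167 CPM of IWAT WT-NC replicate 3. Per 1000 CPM of muscle markers, Fitm1 was 1.06, 1.63 and 0.875 CPM in IWAT KI-HFD and 4.50, 1.75 and 0.918 CPM in IWAT WT-NC. The part of muscle in the Fitm1 result was not tested. Reads shared with the antisense gene Gm15932, which overlaps 109 of its 971 exon bases and had at most 5 counts in a library, cannot be assigned without strand.

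**Figure D3:**
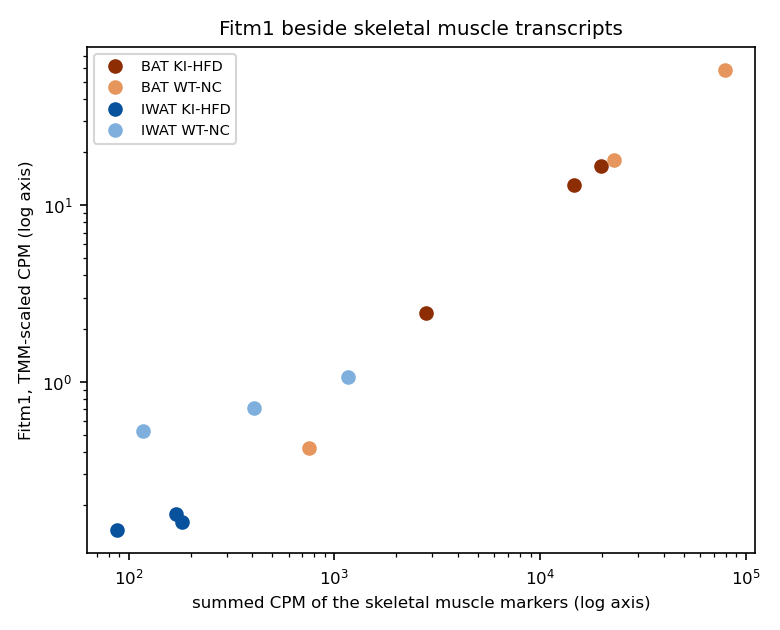
Fitm1 (CPM, log axis) against the summed CPM of 18 skeletal muscle markers (log axis), 1 point per library, coloured by group. The BAT libraries run from 750.2 CPM of muscle markers with 0.422 CPM of Fitm1 to 78945 CPM with 58.3 CPM.

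Hilpda encodes a small droplet protein that inhibits adipose triglyceride lipase, the product of Pnpla2, and is known to rise with hypoxia and fatty acids. The gene lies on chromosome 6 at 29272488 to 29275446, plus strand. Its level in IWAT was 23.2, 26.9 and 33.9 CPM in KI-HFD libraries and 55.2, 44.2 and 81.7 CPM in WT-NC libraries. All KI-HFD libraries were below all WT-NC libraries, with a gap from 33.9 to 44.2 CPM. The log2 ratio was -1.10 (SE 0.249, 95% interval -1.69 to -0.52, 2.15-fold lower), and edgeR's adjusted p was 0.269. DESeq2 gave -1.11 with an adjusted p of 0.00569, and the authors' deposited table gave -0.968 with an adjusted p of 0.00472. In BAT, Hilpda was at 15.2, 11.6 and 21.7 CPM in KI-HFD and 25.7, 16.4 and 31.6 CPM in WT-NC libraries. These groups overlapped, at -0.62 (SE 0.326, edgeR adjusted p = 0.726). BAT over IWAT, the log2 ratio was -1.30 in WT-NC (SE 0.309, edgeR adjusted p = 0.00893) and -0.80 in KI-HFD (SE 0.309, edgeR adjusted p = 0.0624).

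In BAT, 0 of the 10 genes passed edgeR's test between KI-HFD and WT-NC, where 0.0445% of 15726 genes did (7 genes). DESeq2 called 1.71% of these genes and again 0 of the 10. None of the 10 had groups without overlap in BAT, against 13.2% of all genes tested, and none had an unadjusted edgeR p under 0.05, against 7.91%. In IWAT, edgeR called 0 of the 10 genes and 0% of 15881 genes, of which 10.9% had an unadjusted p under 0.05, among them Plin2, Hilpda and Fitm1. DESeq2 called 2.15% of genes there and 2 of the 10, Plin2 and Hilpda. In the authors' deposited table, of the genes with an adjusted p, 1.47% of 16794 passed the threshold in BAT and 2.22% of 15080 in IWAT. It called the same 2 droplet genes in IWAT and none in BAT. Plin2, Hilpda and Fitm1 were the 3 of 10 without overlap in IWAT, against 16.5% of all genes tested. Fitm1 entered the IWAT test only through its WT-NC libraries, the group where it was higher. Its unadjusted p and its lack of overlap therefore add no support.

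**Figure D4:**
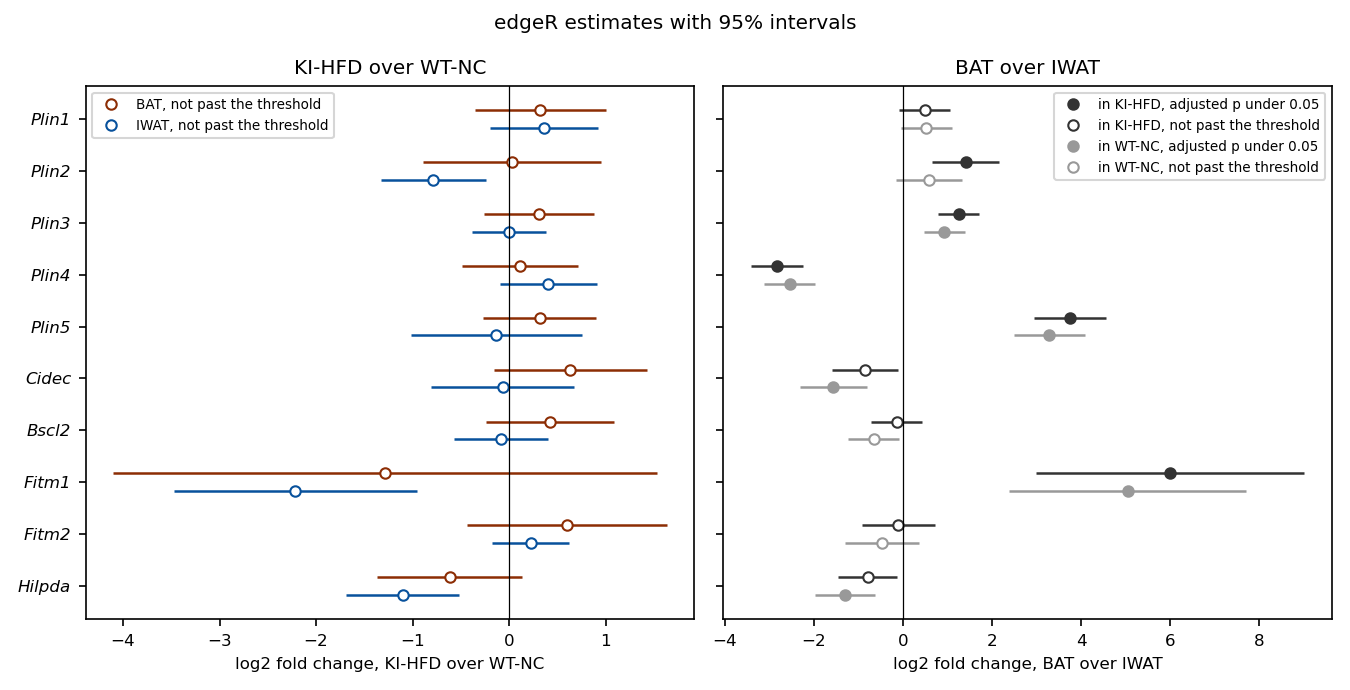
log2 fold change and 95% interval (edgeR) of each droplet gene, for KI-HFD over WT-NC in each depot (left) and for BAT over IWAT in each condition (right); filled points have an adjusted p under 0.05. No point is filled on the left, while Plin3, Plin4, Plin5 and Fitm1 are filled in both conditions on the right.

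BAT over IWAT, 5 of the 10 genes passed edgeR's test in KI-HFD, where 36.0% of 17395 genes did, and 6 of 10 in WT-NC, where 28.4% did. Higher in BAT were Plin3, Plin5 and Fitm1 in both conditions and Plin2 in KI-HFD, against 17.2% of genes in KI-HFD and 14.9% in WT-NC. Lower in BAT were Plin4 in both and Cidec and Hilpda in WT-NC, against 18.8% in KI-HFD and 13.5% in WT-NC. DESeq2 called 6 of the 10 in each condition, where it called 40.0% of genes in KI-HFD and 33.6% in WT-NC. The depots did not overlap for 8 of the 10 genes in KI-HFD, against 47.4% of all genes, and for 6 in WT-NC, against 44.6%. The calls over all genes split into 3000 higher and 3269 lower in KI-HFD and 2594 higher and 2346 lower in WT-NC. With library totals in place of TMM they split into 2226 higher and 4743 lower in KI-HFD and 2063 higher and 3403 lower in WT-NC. With the sample number of the file as a block, Plin3 (edgeR adjusted p = 0.0767), Cidec (0.150) and Fitm1 (0.481) were not called in WT-NC. Only 2 of the WT-NC sample numbers occurred in both depots. In KI-HFD, where 3 did, the same block called 6 of the 10 droplet genes and 4794 of 17395 genes. The change of the depot ratio between conditions was called for 0 of the 10 genes and 0% of 17395 genes with edgeR. DESeq2 called 0.161% of genes and 0 of the 10, and 4.78% of genes had an unadjusted p under 0.05 with edgeR. The log2 size of this interaction ranged over the 10 genes from -0.28 for Plin4 (SE 0.357) to 0.96 for Fitm1 (SE 1.68), each with an edgeR adjusted p of 1.

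Cell type markers are set beside Plin2 and Hilpda in IWAT, where edgeR called none of those tested between KI-HFD and WT-NC. Of 15 macrophage markers, 14 were below 0 on the log2 scale, and their summed level was 1191, 1543 and 1564 CPM in KI-HFD and 2553, 1177 and 2991 CPM in WT-NC libraries. WT-NC replicate 2, with the lowest sum of all 6 but close to KI-HFD replicate 1, held more Plin2 and Hilpda than any KI-HFD library. It also held the least Plin2 and Hilpda among the WT-NC libraries, and there both genes ordered the libraries as the macrophage sum did. Among the KI-HFD libraries Hilpda followed the order of that sum and Plin2 the reverse order. All 9 endothelial markers were below 0, with sums of 536 to 1037 CPM in KI-HFD and 1190.2 to 1681 CPM in WT-NC libraries. All 8 markers of smooth muscle and pericytes were below 0, at 469 to 809.9 CPM in KI-HFD and 906 to 1099 CPM in WT-NC libraries. Of 6 general adipocyte markers, 5 were above 0, with sums of 28671 to 49477 CPM in KI-HFD and 25796 to 34690.4 CPM in WT-NC libraries. No marker of these 4 lists was at 0 in a group. DESeq2 called 2 of 15 macrophage, 2 of 9 endothelial and 4 of 8 smooth muscle and pericyte markers lower. It called 1 of 6 general adipocyte markers higher. Over all genes tested in IWAT, DESeq2 called 2.15%, with 106 higher and 235 lower, and the median log2 ratio was 0.04. All 16 skeletal muscle markers tested were below 0, with 3 called lower by DESeq2, as were 7 of 8 brown adipocyte markers, with 2 called lower. Of 10 fibroblast and progenitor markers 7 were below 0, with 1 called lower. All 6 erythroid markers were below 0, and 9 of 10 lymphocyte markers were above 0, with 0 calls in either list by DESeq2. The white adipocyte, neutrophil and mast cell, Schwann cell and neuron, and epithelial lists, of 1 to 7 markers tested, also had 0 DESeq2 calls. The part of these cell types in the Plin2 and Hilpda levels was not tested. IWAT KI-HFD replicate 3, which had the high lymphocyte sum, had the lowest Plin2 level and the highest Hilpda level of its group. Without it the log2 ratio in IWAT was -0.64 for Plin2 and -1.27 for Hilpda.

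**Figure D5:**
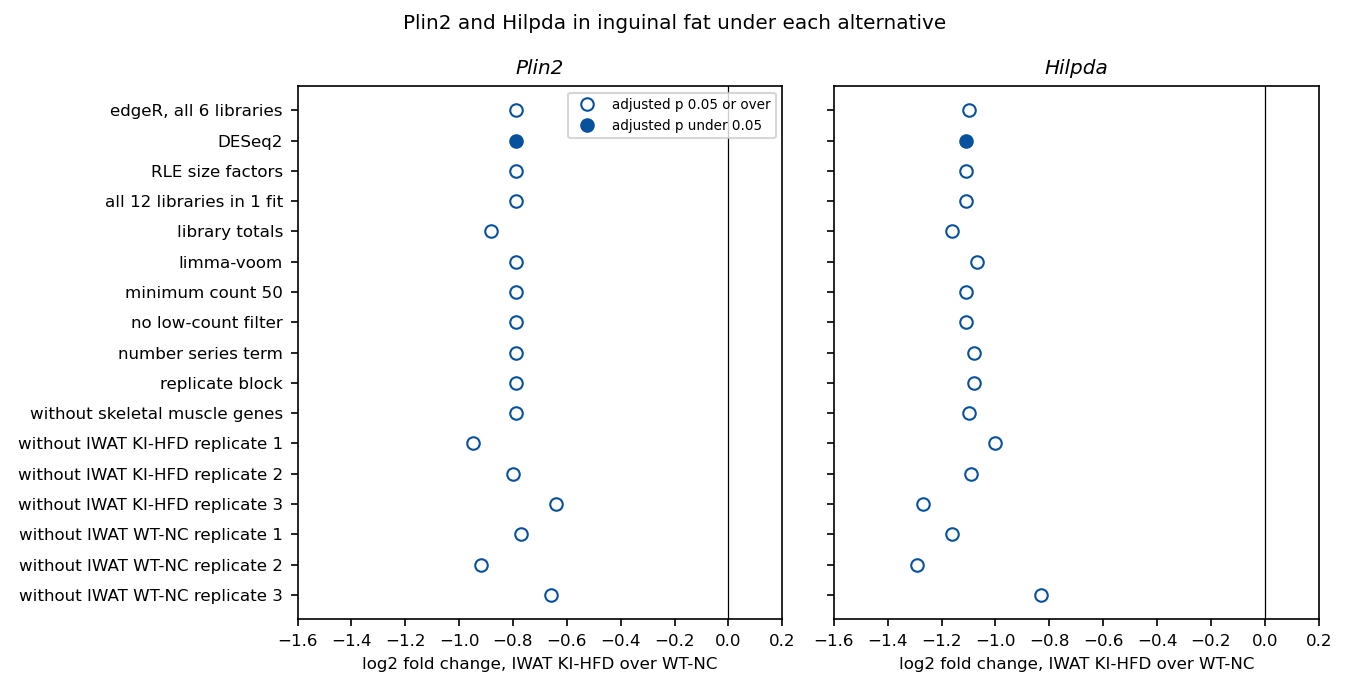
log2 fold change of Plin2 and Hilpda in IWAT KI-HFD over WT-NC under each alternative analysis, with an adjusted p under 0.05 shown filled. Every point lies below 0, from -0.95 to -0.64 for Plin2 and from -1.29 to -0.83 for Hilpda, and the DESeq2 point is filled in each panel.

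The partners of the droplet coat were read from 6 lists of related genes. Among 12 genes of lipolysis at the droplet, edgeR called 0 in either depot, with a median log2 ratio of 0.38 in BAT and 0.13 in IWAT, beside 0.00 and 0.04 for all genes tested. Pnpla2, the lipase that Hilpda inhibits, averaged 3840.1 ± 1036 CPM in IWAT KI-HFD and 2022 ± 454 CPM in IWAT WT-NC (SD, n = 3 each). Its log2 ratio was 0.93 (SE 0.297, edgeR adjusted p = 0.371, DESeq2 adjusted p = 0.0187), in the opposite direction to Hilpda. Adrb3, the beta-3 adrenergic receptor gene of adipocytes, averaged 398.5 ± 93.1 CPM in IWAT KI-HFD and 105 ± 23.5 CPM in IWAT WT-NC, with a log2 ratio of 1.93 (edgeR adjusted p = 0.106, DESeq2 adjusted p = 1e-11). It was named after its values were seen, as the other DESeq2 call of that list, and DESeq2 also called its interaction between depot and condition (log2 -1.95, DESeq2 adjusted p = 0.00119, edgeR adjusted p = 0.463). Abhd5, the lipase activator held by Plin1, had log2 ratios of 0.41 in BAT and 0.10 in IWAT, and Lipe, hormone-sensitive lipase, 0.39 and 0.48. G0s2, another inhibitor of the Pnpla2 product, had log2 ratios of 0.09 in BAT and 0.19 in IWAT. None of these passed with edgeR or DESeq2.

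Of 23 further droplet proteins, 22 were tested in BAT and 21 in IWAT, and edgeR called 0 in each, with medians of 0.17 in BAT and 0.13 in IWAT. DESeq2 called Gpat4 in BAT (log2 1.24, DESeq2 adjusted p = 0.0391) and Mettl7a1 in IWAT (log2 1.02, DESeq2 adjusted p = 0.00618), both higher in KI-HFD and both named after their values were seen. Cidea averaged 3695 ± 421 CPM in BAT KI-HFD and 2157 ± 544 CPM in BAT WT-NC (SD, n = 3 each), a log2 ratio of 0.76 (SE 0.342, edgeR adjusted p = 0.650). Of 12 genes of triglyceride synthesis, edgeR called 0 and DESeq2 only Gpat4 in BAT, with medians of 0.61 in BAT and 0.27 in IWAT. Gpam, which starts glycerolipid synthesis, had a log2 ratio of 0.89 in BAT (SE 0.301, edgeR adjusted p = 0.499) and 0.64 in IWAT (SE 0.219, edgeR adjusted p = 0.380). Of 14 hypoxia targets, edgeR called 0 in either depot, with medians of 0.10 in BAT and -0.02 in IWAT. Adm, the DESeq2 call among them in IWAT and named after its values were seen, averaged 18.4 ± 4.50 CPM in KI-HFD and 40.2 ± 4.58 CPM in WT-NC (SD, n = 3 each). Its log2 ratio was -1.13 (edgeR adjusted p = 0.228, DESeq2 adjusted p = 0.000467). Vegfa, the vascular growth factor among the same targets, had a log2 ratio of 0.18 in IWAT (SE 0.186, edgeR adjusted p = 0.751). Slc2a1, Pdk1 and Bnip3, listed next to it, were at 0.28, 0.64 and 0.55 in IWAT (edgeR adjusted p = 0.687, 0.316 and 0.477). Of the 14 targets, 7 were above 0 and 7 below 0 in IWAT.

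Of 11 adipocyte regulators, edgeR called 0 between KI-HFD and WT-NC, with medians of 0.33 in BAT and 0.60 in IWAT. Of 11 fasting and PPAR targets, 11 were tested in BAT and 8 in IWAT, and edgeR called 0, with medians of 0.53 in BAT and 0.05 in IWAT. DESeq2 called 0 regulators. An unadjusted edgeR p under 0.05 was found in BAT for 2 further droplet proteins, 0 lipolysis genes, 4 synthesis genes, 2 hypoxia targets, 0 regulators and 2 fasting and PPAR targets. In IWAT these counts were 4, 3, 3, 2, 3 and 2. Of all genes tested, 7.91% in BAT and 10.9% in IWAT had such a p. Between the depots these lists held several calls. Ppara, a receptor of fatty acids, averaged 264 CPM in BAT KI-HFD and 12.8 CPM in IWAT KI-HFD, a log2 ratio of 4.37 (edgeR adjusted p = 2.94e-05). In WT-NC it averaged 200.3 CPM in BAT and 8.06 CPM in IWAT, a log2 ratio of 4.64 (edgeR adjusted p = 4.24e-05). Pparg, the master regulator of adipocytes, averaged 418.5 CPM in BAT KI-HFD and 349 CPM in IWAT KI-HFD, a log2 ratio of 0.26 (edgeR adjusted p = 0.452). Of the regulators, 5 were higher and 2 lower in BAT in KI-HFD, and 6 were higher and 2 lower in WT-NC. Of the fasting and PPAR targets, 7 were higher and 3 lower in BAT in each condition. Of 22 further droplet proteins, 4 were higher and 5 lower in KI-HFD, and 2 were higher and 4 lower in WT-NC. Over all genes tested, 17.2% were higher and 18.8% lower in KI-HFD, and 14.9% were higher and 13.5% lower in WT-NC.

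Levels between the 10 genes were set against each other as CPM per kilobase of all exons. On that length Cidec was the highest in all 4 groups, with 1069 ± 156 in BAT KI-HFD, 685 ± 251 in BAT WT-NC, 1927 ± 646 in IWAT KI-HFD and 2019.5 ± 317 in IWAT WT-NC (SD, n = 3 each). Plin2 followed in each group, and its range overlapped that of Cidec in BAT WT-NC and that of Plin4 in IWAT KI-HFD. Next came Plin5 in BAT and Plin4 in IWAT, each overlapping Plin1 except in BAT KI-HFD. In BAT, Plin3, Fitm2 and Bscl2 overlapped from one to the next, as did Hilpda and Fitm1 at the low end, and in WT-NC Plin4 and Fitm1. In IWAT, Fitm2 and Bscl2 overlapped, as did Plin3 and Plin5, and at the low end Plin5 and Hilpda in KI-HFD and Fitm2 and Hilpda in WT-NC. Fitm1 was the lowest in BAT KI-HFD and in both IWAT groups, and Hilpda in BAT WT-NC. The order depended on the length. With the longest transcript, a length chosen after seeing the data, Plin2 was highest in BAT WT-NC, at 999 ± 470.0 CPM per kilobase beside 739 ± 271 for Cidec, and their ranges overlapped in both BAT groups. Plin1 then had a higher mean than Plin5 in BAT, with ranges that overlapped in both groups. In IWAT it stood above Plin4 without overlap.

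The genes whose levels moved most like a droplet gene over the 12 libraries were taken from 12022 genes of at least 2 CPM, by the root mean square difference of centred log2 CPM. For Plin5 they were the mitochondrial genes Suclg1 (0.33) and Cox5a (0.35), and Ddo (0.36), where Plin5 itself had an SD of 1.84 over the libraries. For Fitm1 they were Dusp13 (0.28) and the muscle genes Tpm2 (0.32) and Ryr1 (0.33), with an SD of 2.68 for Fitm1. For Hilpda they were Cmtm3 (0.29), Ppfia4 (0.29) and Mmp11 (0.30), against an SD of 0.77. For Plin1 they were Zbtb7b (0.10), Nfia (0.11) and Txnl4b (0.12), against an SD of 0.39. Plin5 and Fitm1 differ widely between BAT and IWAT, and Fitm1 also ran from 0.422 to 58.3 CPM within BAT WT-NC. Likeness was taken over both depots together, and its size within a depot was not tested.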

How the data were processed

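Trizol-extracted RNA was cleaned on columns, enriched for poly-A and sequenced single-end without strand, per the labels' protocols. FastQC, STAR, HTSeq and DESeq2 are named with build GRCm38.p5 in the submitters' processing notes, without versions. The deposited counts are unnormalised reads per gene. The BAT files also hold 5 tallies that name no gene, and these were excluded. There 4.99 to 11.6% of reads fell in no gene and 22.7 to 31.6% did not align uniquely. No column of an unknown sample was found.

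The authors also deposited a table per depot of KI against WT. Per the file headers, its base mean is a signal, the average of scaled counts. Its log2 fold change is the authors' own, as are the standard error and the Wald statistic, each treated as a score here. The table also holds the authors' p-value, raw and adjusted. Whether those fold changes were shrunken is not given in the sources used here.

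Counts were tested in R 4.3.3 with edgeR 4.0.16, after filterByExpr (minimum count 10) and TMM, by quasi-likelihood F test. P-values are two-sided and adjusted by Benjamini-Hochberg over all genes tested, with a threshold of 0.05. KI-HFD was compared with WT-NC in the 6 libraries of a depot. BAT was compared with IWAT, and the interaction of depot and condition tested, in a fit of all 12 libraries. An SE is the size of the log2 ratio over the square root of F. CPM values use TMM over the 12 libraries. Gene positions and exon lengths are from GENCODE M21, which holds all 55536 identifiers. Promoters are from RefSeq, and where a gene had several entries the one nearest its GENCODE start was used.

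DESeq2 1.42.0, limma 3.58.1, other scalings and filters and each library left out were alternatives. The fits were checked on simulated counts, where unchanged genes made up a larger share of the DESeq2 calls than of the edgeR calls in every comparison, and for DESeq2 that share was above the threshold. The 10 droplet genes and all lists were chosen with earlier results of these data known. Named were all 10 genes, the first 4 tested symbols of a list and up to 4 list members that passed, as space allowed, with exceptions stated where they occur. The result of 1 listed gene is left out and not reported here. The sensitivity to replicate numbers is given with the alternatives.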

Additional observations from a re-analysis of the deposited data

How the results depend on the processing

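Over all alternatives tried, none of the droplet genes called in a comparison changed sign. In IWAT between KI-HFD and WT-NC, Plin2 and Hilpda passed with DESeq2 (2 of the 10 genes, against 0) and with no other alternative. In BAT the 7 gene calls became 0 with RLE size factors, library totals, limma-voom, a minimum count of 50, a number series term or a fit of all 12 libraries, 269 with DESeq2 and 207 without a low-count filter. Leaving out 1 replicate gave 0 to 2 calls, with 2 without WT-NC replicate 3. In IWAT the 0 gene calls became 1 in a fit of all 12 libraries or with a minimum count of 50, 2 with library totals, 45 without a filter, 341 with DESeq2 and 0 to 10 with a replicate left out, 10 without KI-HFD replicate 3. For the interaction the 0 calls became 28 with DESeq2 and 33 without a filter. The WT-NC depot comparison gave 3176 to 5961 calls with a replicate left out, against 4940 with all, and 6 to 8 droplet genes. Library totals moved the median log2 ratio of all genes to -0.136 in BAT, -0.304 between the depots in KI-HFD, -0.196 between them in WT-NC and -0.112 for the interaction. Between the depots in KI-HFD, Cidec and Hilpda, which otherwise did not pass, did so under some alternatives. The causes of these shifts were not tested.

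The replicate block, with the title numbers as a term, gave 11 calls in BAT, 0 in IWAT, 0 for the interaction, 5719 between the depots in KI-HFD and 4365 in WT-NC, and called 6 of the 10 droplet genes in each depot comparison, where Hilpda passed in KI-HFD (edgeR adjusted p = 0.00777). Deviations of same-numbered libraries correlated at -0.23 to 0.235, with 5 of 12 pairs over 0.1, so the numbers were not shown to pair the samples. The sample number of the files was also used as a block. Of the numbers, 5 were found in both depots, 2 of WT-NC and 3 of KI-HFD. The WT-NC depot comparison then gave 1564 calls and 3 droplet genes, and the KI-HFD depot comparison 4794 calls and 6. Same-numbered libraries correlated at -0.108 to 0.0688.

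None of the ratios whose sign turned was called. In BAT they were Plin4 at -0.02 and Plin2 at -0.12 with library totals, Plin2 at -8.3e-05 without a filter and at -0.02 with a minimum count of 50, and Fitm1 at 0.13 with limma-voom. In IWAT Plin3 turned to -0.08 with library totals, -0.0058 with a minimum count of 50, -0.0035 with limma-voom, -0.0054 with the replicate block, -0.01 with the number series and -0.00039 in the fit of all libraries. For the interaction, Plin1 turned to 0.0013 and Fitm2 to -0.02 with the sample number block. With a replicate left out, the log2 ratios in BAT ran from -0.18 to 0.47 for Plin2, -0.08 to 0.28 for Plin4 and -1.85 to 0.19 for Fitm1. In IWAT they ran from -0.10 to 0.13 for Plin3, -0.64 to 0.16 for Plin5, -0.33 to 0.16 for Cidec and -0.20 to 0.11 for Bscl2. The interaction ran from -0.21 to 0.18 for Plin1 and -0.0025 to 0.89 for Fitm2, and Fitm2 between the depots in KI-HFD from -0.49 to 0.16. The longest transcript as length moved 15 of 20 perilipin shares by more than their SD. With a minimum count of 50, Fitm1 was not tested in IWAT, where few reads limit it.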
